A study of Homo sapiens with 19 samples.

Results

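The 42 genes described here encode the DNA replication machinery: the licensing factors that load the helicase at origins, the subunits that turn it on, the polymerases, the sliding clamp and its loader, the enzymes that join Okazaki fragments, the single-strand binding proteins, the enzymes that supply nucleotides, and the transcription factors E2F1 and E2F2. They were taken from a list of symbols matched to Ensembl identifiers. The matching used no measured value, but the list was chosen with earlier results of these data known. All 42 were found among the 44717 gene identifiers of the count files. RNA-seq had been performed on 501Mel, a human melanoma cell line, and Hermes 3A, an untransformed human melanocyte line, after lentiviral shRNA silencing of BRG1 (gene SMARCA4, the ATPase of a chromatin-remodelling complex) or of MITF, the bHLH-Zip transcription factor that directs the melanocyte lineage. The comparisons ask how expression changes when either factor is lost in each line.

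The 19 samples fall into 7 groups. 501Mel cells carried the scrambled control shSCR1 (3 samples), shBRG1 (3 samples), a scrambled control labelled shSCR2 (2 samples) or shMITF (2 samples), and Hermes 3A cells carried shSCR, shBRG1 or shMITF (3 samples each). Every cell received a lentiviral shRNA vector, and BRG1 and MITF were each silenced with 1 construct, so an effect of the target and an effect of that hairpin cannot be told apart. 501Mel cells were grown in RPMI with serum, whereas the Hermes 3A medium also held TPA, cholera toxin, stem cell factor and endothelin-1, so line and medium cannot be told apart. The labels do not say that replicates were separate cultures, so p-values measure the spread between these samples. RNA came from whole cultures, in which fewer cells in S phase and less RNA per cell cannot be told apart.

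Before S phase the origin recognition complex, with CDC6 and CDT1, loads the ring of MCM2 to MCM7 onto DNA, and geminin (GMNN) holds CDT1 in check so that each origin fires a single time per cycle. In S phase MCM10, CDC45 and the GINS complex convert the loaded ring into the active helicase, polymerase alpha and primase lay down primers, PCNA clamps polymerases delta and epsilon to the template, and FEN1 and LIG1 finish the lagging strand. Many of these genes are transcribed at the G1/S transition under E2F factors, and their mRNAs are widely read as a mark of cycling cells.

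The bases just upstream of the start of 8 members are shown as examples. These 8 are a choice among the genes that changed and do not include all that moved most in the comparisons below. RefSeq promoter windows on GRCh38.p14, from 250 bases before to 50 after each start, were found for 36 of the 42 members. Entries were missing for RPA2, RPA3, GINS4, MCM4, MCM5 and POLD3. Each line gives the 120 bases before the first start listed for the gene, 5′ to 3′ on the gene's own strand. Capitals mark an E2F-type match (TTTCCCGC, TTTCGCGC, TTTGCCGC or TTTGGCGC, either strand) or CCAAT (either strand).
MCM6: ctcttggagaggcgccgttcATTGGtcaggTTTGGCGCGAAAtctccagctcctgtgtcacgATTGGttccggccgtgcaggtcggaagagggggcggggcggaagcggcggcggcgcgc
PCNA: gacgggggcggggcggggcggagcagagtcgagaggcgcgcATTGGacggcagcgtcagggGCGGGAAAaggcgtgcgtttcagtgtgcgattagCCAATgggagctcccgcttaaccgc
TYMS: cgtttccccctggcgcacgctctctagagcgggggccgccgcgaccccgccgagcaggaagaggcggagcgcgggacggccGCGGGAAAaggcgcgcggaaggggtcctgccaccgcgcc
CDT1: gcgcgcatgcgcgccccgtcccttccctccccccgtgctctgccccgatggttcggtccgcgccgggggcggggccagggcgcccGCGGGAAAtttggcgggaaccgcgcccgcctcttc
LIG1: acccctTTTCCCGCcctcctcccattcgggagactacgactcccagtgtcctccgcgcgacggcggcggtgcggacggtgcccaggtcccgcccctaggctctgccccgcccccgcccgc
PRIM1: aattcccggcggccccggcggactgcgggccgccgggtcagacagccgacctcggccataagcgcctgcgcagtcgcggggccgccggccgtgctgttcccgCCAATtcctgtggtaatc
E2F1: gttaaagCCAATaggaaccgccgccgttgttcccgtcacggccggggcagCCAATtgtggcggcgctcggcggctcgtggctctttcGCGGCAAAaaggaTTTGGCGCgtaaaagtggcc
GINS3: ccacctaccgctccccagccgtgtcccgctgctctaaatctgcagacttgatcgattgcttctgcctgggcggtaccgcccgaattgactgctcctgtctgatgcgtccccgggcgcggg
The stretches lie at chr2:135876444-135876563 (minus strand) for MCM6, chr20:5126623-5126742 (minus strand) for PCNA, chr18:657533-657652 (plus strand) for TYMS, chr16:88803669-88803788 (plus strand) for CDT1, chr19:48170345-48170464 (minus strand) for LIG1, chr12:56752324-56752443 (minus strand) for PRIM1, chr20:33686386-33686505 (minus strand) for E2F1 and chr16:58392351-58392470 (plus strand) for GINS3. MCM6, PCNA, TYMS, CDT1, LIG1 and E2F1 hold an E2F-type match in the bases shown. PRIM1 holds CCAAT alone, in these bases and in its whole window. The E2F-type letters found for GINS3 lie outside the bases shown. Among the other members that fell more than 2-fold in a comparison, E2F2 holds an E2F-type match in its 120 bases. CDC6, CDC45, FEN1, MCM10, ORC1, ORC6, POLE2, RPA1 and RRM2 hold no such match there. Only the listed letters were searched, so the lack of a match does not mean the lack of an E2F site. The close variant TTTGGCGG, for example, was not counted and stands in the 120 bases of CDC6, CDC45 and CDT1. In the whole windows, 20 of 36 members (55.6%) held an E2F-type match, against 3.99% of 27305 genes. A gene was counted if any of its windows held the letters. CCAAT was found in 22 of 36 members (61.1%), against 39.7% of all genes. TCATGTG or TCACGTG, the letters read by MITF, were found for 6 of 36 members (16.7%), against 7.89% of all genes. Counted by window, they stood in 6 of 46 (13.0%), against 6.52% of 35116. A match describes the letters and is not evidence of binding.

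Libraries held 29158502 to 78857900 counted reads, and the lowest count of any member in any library was 90, for POLE2 in a Hermes 3A shMITF sample. The silenced genes were lower in every sample of their group than in the control group set against it. SMARCA4 fell by 2.36 on the log2 scale in 501Mel shBRG1 and by 2.38 in Hermes 3A shBRG1, while MITF fell by 1.06 in 501Mel shMITF and by 0.85 in Hermes 3A shMITF (edgeR adjusted p = 0.0194). The 501Mel shMITF samples held 494 and 546 CPM of MITF (CPM are read counts scaled to the normalised library size), which overlaps the 513 to 609 CPM of shSCR1 and lies below the 1048 and 1186 CPM of shSCR2. MITF also fell in both shBRG1 groups, by 1.55 in 501Mel and by 0.43 in Hermes 3A. All 7 melanocyte lineage markers examined (MITF, SOX10, TYR, TYRP1, DCT, PMEL and MLANA) were detected in every group, with DCT at only 2.29 CPM in Hermes 3A shBRG1. Their summed level moved with the knockdowns too, from 29337 to 31543 CPM in 501Mel shSCR1 to 3113 to 3408 CPM with shBRG1, from 20753 to 23269.9 CPM in shSCR2 to 11378 to 11792 CPM with shMITF, and from 63369.97 to 64564 CPM in Hermes 3A shSCR to 30257 to 31897 CPM with shBRG1 and 25941 to 34029.9 CPM with shMITF, and its part in the results was not tested. The summed level of 5 fibroblast genes rose with shBRG1 in both lines and with shMITF in Hermes 3A. In 501Mel it was 3.57 to 4.96 CPM with shSCR1 and 15.9 to 19.3 CPM with shBRG1. With shSCR2 it was 7.71 to 8.93 CPM, which overlaps the 7.40 to 13.8 CPM of 501Mel shMITF. In Hermes 3A it was 71.4 to 80.1 CPM with shSCR, 139 to 148 CPM with shBRG1 and 113 to 218 CPM with shMITF. COL1A2 was under 0.1 CPM in 501Mel shSCR2 and shMITF, and DCN was under 0.1 CPM in the Hermes 3A knockdowns. The part of the fibroblast genes in the results was not tested. The 3 blood genes with values summed to at most 1.45 CPM in any sample, the 2 endothelial genes to at most 13.6 CPM, and KRT10, the keratinocyte gene with values, to 27.1 to 64.6 CPM. The biological coefficient of variation within a group was 4.58% to 5.97% in 4 groups, 16.8% and 18.0% in the 501Mel shSCR2 and shMITF groups, and 31.5% in Hermes 3A shMITF.

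The summed level of the replication genes was highest in the shSCR2 control of 501Mel and lowest in the Hermes 3A knockdowns. Scaled over all 19 samples, the summed level of the 42 genes was 3318, 3821 and 3723 CPM in the 501Mel shSCR1 samples and 6233 and 6528 CPM in the shSCR2 samples. It was 2144, 2175 and 2146 CPM with shBRG1 and 3937 and 3676 CPM with shMITF. In Hermes 3A it was 2441, 2355 and 2398 CPM with shSCR, 1664, 1732 and 1649 CPM with shBRG1, and 1723, 2129 and 1649 CPM with shMITF. The shSCR2 group had the highest mean for all 42 members, and the lowest mean fell to Hermes 3A shBRG1 for 28, Hermes 3A shMITF for 7, 501Mel shBRG1 for 6 and Hermes 3A shSCR for 1. Expressed per kilobase of exon, PCNA, the clamp, had the highest level of the 42 in all 3 control groups (162 ± 14.3 CPM per kb in shSCR1, SD, n = 3) and GINS3 the lowest (1.44 ± 0.178).

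**Figure D1:**
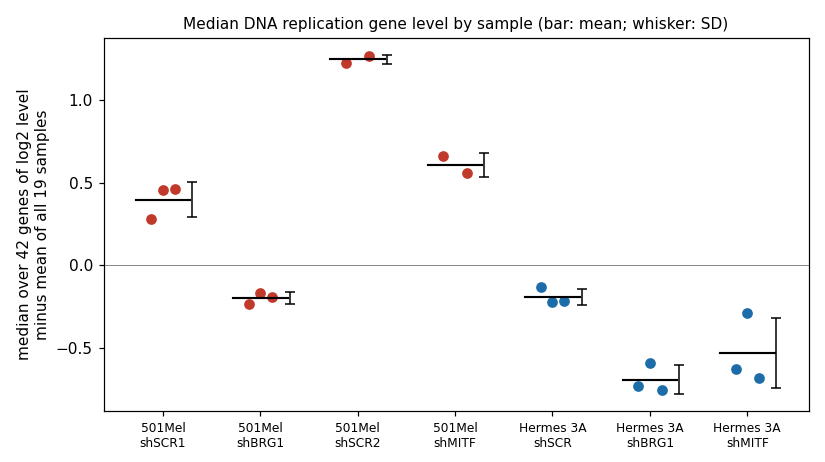
Median over the 42 replication genes of the log2 level relative to each gene's mean over all 19 samples (y axis, log2 units) for each sample, grouped along the x axis, with 501Mel samples in red and Hermes 3A samples in blue, and with a bar for the group mean and a whisker for the SD. The shSCR2 samples sit at 1.23 and 1.27, above every other sample, and the shBRG1 samples of 501Mel sit between -0.23 and -0.17.

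The 2 scrambled controls of 501Mel were compared first, since each was set against a different knockdown. The sample labels do not say which scrambled group belongs to which knockdown, so the pairing is an assumption. shSCR1 was set against shBRG1, whose files also list 42224 genes, and shSCR2 against shMITF, whose files also list 41467. All 42 genes were higher in shSCR2 than in shSCR1, against 48.6% of all genes tested, and 39 of them passed the test (adjusted p under 0.05, edgeR quasi-likelihood test adjusted over 19056 genes), against 35.3% of all genes higher by the same rule. With the added rule of a more than 2-fold change (log2 fold change beyond 1), 16 members were called higher, against 12.3% of all genes. The median log2 difference was 0.90 over the members and -0.03 over all genes. RRM2, the small subunit of ribonucleotide reductase, differed most (1.83 ± 0.09, SE), followed by MCM10 (1.67 ± 0.12), RFC3 (1.55 ± 0.09) and ORC1 (1.51 ± 0.09). POLD2, POLE and E2F1 did not pass, with differences of 0.14, 0.17 and 0.22. MITF itself stood at 513 to 609 CPM in shSCR1 and at 1048 and 1186 CPM in shSCR2, and SMARCA4 at 178 to 193 CPM against 325 and 329 CPM. Whether the 2 scrambled groups used different vectors, dates or cell stocks is not given in the sources used here, and their files list different numbers of genes (42224 and 41467). The part of either in the difference was not tested. The shBRG1 and shMITF comparisons in 501Mel are therefore given with the other scrambled group too, an alternative added after seeing the data. The contrasts between lines or knockdowns and the lists of other genes were not refitted in this way.

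In 501Mel cells BRG1 silencing lowered most of the replication machinery. Of 42 members, 35 fell, against 39.1% of 20514 genes tested, RPA2 and PRIM2 rose, against 41.2% of all genes, and 5 did not pass. Of the 35, 12 fell more than 2-fold, against 17.4% of all genes: MCM6, PCNA, PRIM1, MCM5, TYMS, LIG1, CDC6, FEN1, CDT1, RPA1, E2F2 and CDC45. The median log2 fold change was -0.67 over the members and 0.05 over all genes. Values below are CPM normalised over the samples compared, in order of replicate.

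MCM6, a subunit of the helicase ring, fell furthest. It stood at 105, 121 and 116 CPM with shSCR1 and at 17.4, 15.9 and 17.0 CPM with shBRG1. No sample of either group came near the other, and the fall was 6.80-fold (log2 -2.77 ± 0.06, edgeR adjusted p = 1.56e-21). MCM5, another subunit of the ring, measured 213, 253 and 244 CPM against 65.4, 71.0 and 69.4 CPM, a 3.45-fold fall (log2 -1.79 ± 0.06). The other ring subunits fell less, by 0.98 (MCM3), 0.78 (MCM4), 0.57 (MCM7) and 0.55 (MCM2) on the log2 scale. The fold changes of the 6 ring subunits thus spanned 2.22 log2 units. Among the loaders, CDC6 fell by 1.35, CDT1 by 1.14, ORC1 by 0.74 and ORC6 by 0.30, and the CDT1 inhibitor GMNN fell by 0.31.

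Of the factors that activate the helicase, CDC45 fell by 1.06, GINS4 by 0.68, GINS2 by 0.66 and MCM10 by 0.45 on the log2 scale. GINS1 and GINS3 did not pass, with log2 fold changes of -0.02 (95% confidence interval -0.14 to 0.11) and 0.19 (0.02 to 0.37, edgeR adjusted p = 0.0523). Thus 2 of the 4 GINS subunits fell.

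The polymerase genes showed the same split within a complex. PRIM1, the catalytic primase subunit, stood at 34.8, 38.4 and 41.1 CPM with shSCR1 and at 10.1, 10.0 and 10.8 CPM with shBRG1. This was a 3.69-fold fall with no overlap (log2 -1.88 ± 0.07, edgeR adjusted p = 2.62e-17). Its partner PRIM2 measured 21.7, 23.0 and 22.5 CPM against 26.5, 23.4 and 25.2 CPM. The groups did not overlap, but the rise was small (log2 0.16 ± 0.06, edgeR adjusted p = 0.0246) and passed in only 1 of the 6 fits that each left out a library, the fit without shBRG1 replicate 2. POLA1 and POLA2, the polymerase alpha subunits, fell by 0.80 and 0.81, the delta subunits POLD1, POLD3 and POLD2 by 0.72, 0.60 and 0.28, and the epsilon catalytic subunit POLE by 0.95. POLE2, the second epsilon subunit, did not pass (log2 -0.17 ± 0.09, edgeR adjusted p = 0.0783).

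PCNA, the sliding clamp, stood at 249, 296 and 288 CPM with shSCR1 and at 69.8, 68.8 and 69.0 CPM with shBRG1. The fall was 4.01-fold, and the shBRG1 samples differed from one another by little more than 1 CPM (log2 -2.00 ± 0.06, edgeR adjusted p = 1.64e-19). The clamp loader moved far less, with falls of 0.59 (RFC3), 0.39 (RFC5), 0.32 (RFC4) and 0.16 (RFC2). RFC2 did not pass without shSCR1 replicate 2 or without shBRG1 replicate 1 (largest adjusted p = 0.0787, edgeR). LIG1, which seals Okazaki fragments, fell by 1.48 and FEN1, which trims their flaps, by 1.20.

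The single-strand binding complex RPA divided. RPA1, its large subunit, fell by 1.11 ± 0.05, RPA3 did not pass (-0.10 ± 0.05) and RPA2 rose. RPA2 measured 72.4, 74.9 and 76.7 CPM with shSCR1 and 112, 113 and 110.4 CPM with shBRG1. The groups did not overlap, and the rise was 0.58 ± 0.05 on the log2 scale (edgeR adjusted p = 5.05e-11). Against shSCR2, however, RPA2 was lower with shBRG1 (-0.29).

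All 4 genes of nucleotide supply fell. TYMS, thymidylate synthase, stood at 67.0, 81.5 and 79.3 CPM with shSCR1 and at 25.6, 25.3 and 25.1 CPM with shBRG1, a 2.99-fold fall (log2 -1.58 ± 0.06, edgeR adjusted p = 1.21e-16). RRM2 fell by 0.93, RRM1 by 0.64 and TK1, thymidine kinase, by 0.49. The E2F genes went different ways. E2F2 fell by 1.10 ± 0.08, whereas E2F1 did not pass (control 59.8 ± 6.95 CPM, knockdown 65.4 ± 1.77 CPM, SD, 3 samples a group, edgeR adjusted p = 0.0617).

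**Figure D2:**
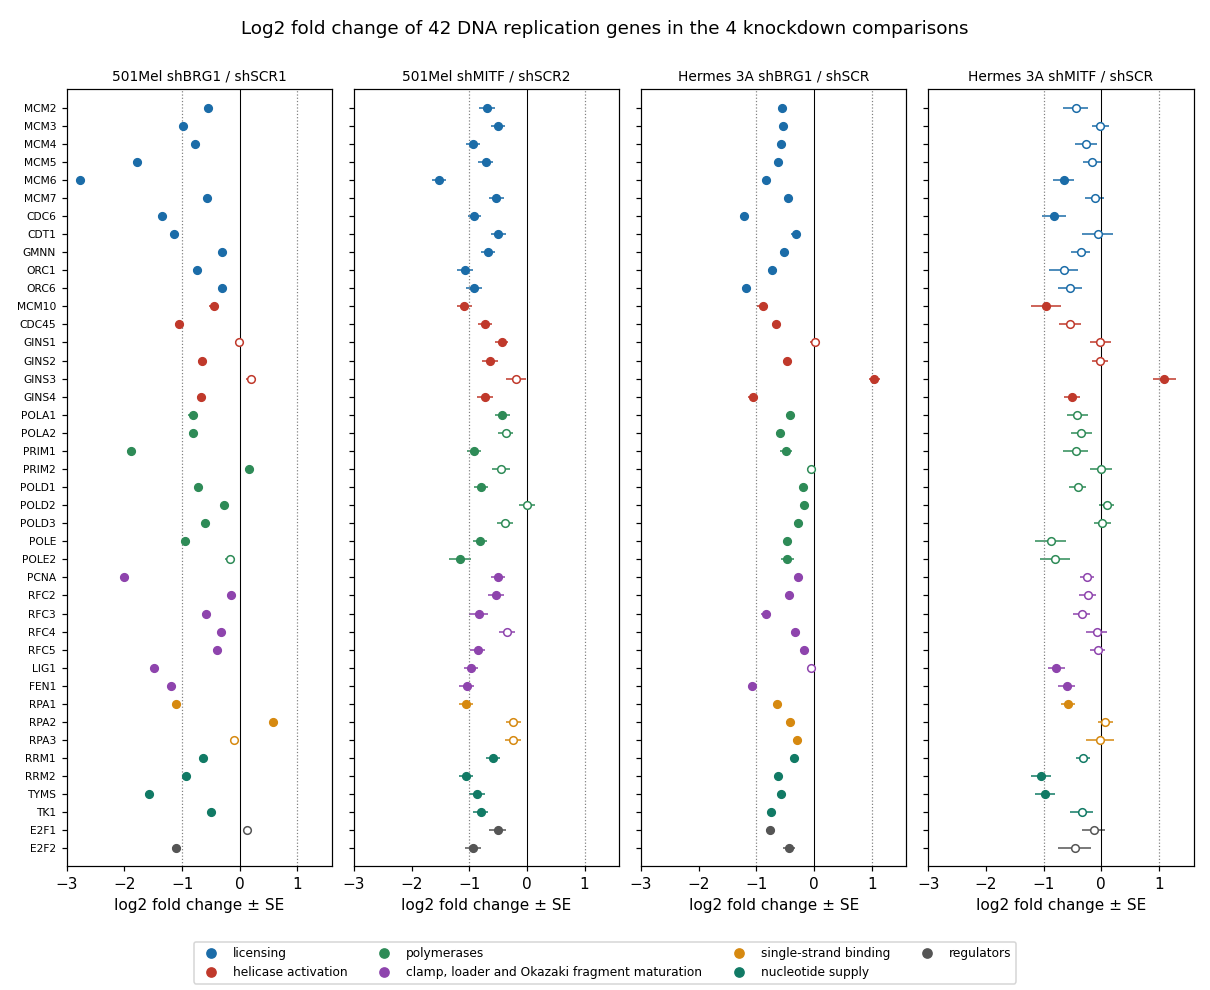
Log2 fold change (x axis, ± SE) of each of the 42 genes (y axis) in the 4 knockdown comparisons, coloured by role, with filled points for adjusted p under 0.05 and dotted lines at a log2 fold change of -1 and 1. In 501Mel shBRG1 the points run from -2.77 (MCM6) to 0.58 (RPA2), in Hermes 3A shBRG1 from -1.22 (CDC6) to 1.04 (GINS3).

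The size of the 501Mel shBRG1 change depended on the scaling and on the control. Without TMM normalisation, which centres the changes of most genes near 0, the median of all genes moved from 0.05 to 0.40, 28 members fell, against 28.5% of all genes in that fit, 7 rose, against 55.1%, and the members' median was -0.32. Against shSCR2 in place of shSCR1, 41 members fell, against 37.1% of all genes, 34 of them more than 2-fold, against 20.1%, with a median of -1.55 over the members and 0.15 over all genes.

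**Figure D3:**
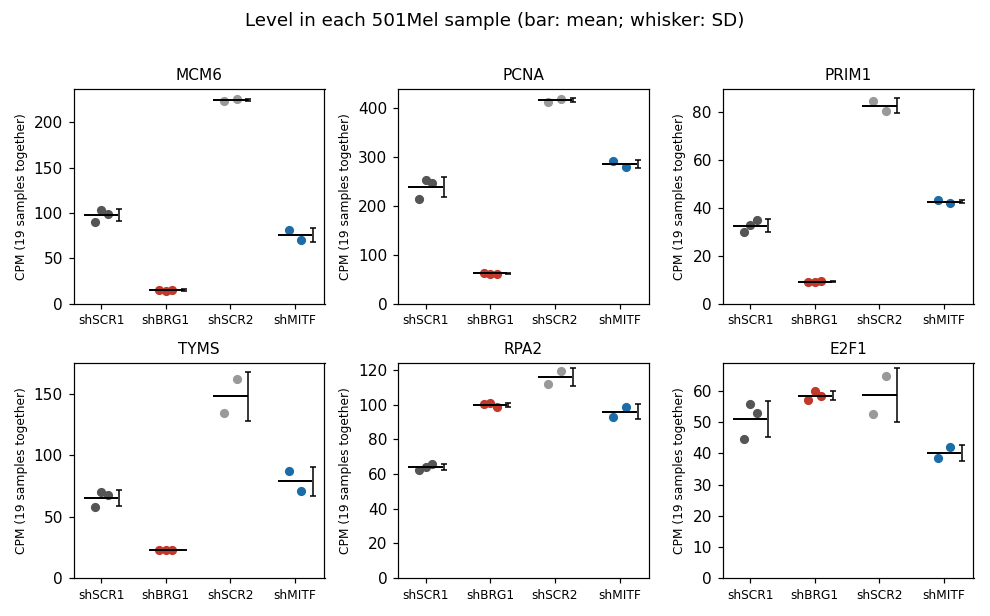
Level (y axis, CPM scaled over all 19 samples) of MCM6, PCNA, PRIM1, TYMS, RPA2 and E2F1 in each 501Mel sample, by group along the x axis, with a bar for the mean and a whisker for the SD. MCM6, PCNA, PRIM1 and TYMS are lowest with shBRG1 in all samples, while RPA2 stands at 63.9 ± 1.66 CPM with shSCR1 and 116 ± 5.14 CPM with shSCR2.

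MITF silencing in 501Mel, against shSCR2 as the assumed control, lowered the genes more evenly. Of 42 members, 34 fell, against 10.5% of 17701 genes tested, and the other 8 (GINS3, POLA2, PRIM2, POLD2, POLD3, RFC4, RPA2 and RPA3) did not pass. Of the 34, 7 fell more than 2-fold, against 3.4% of all genes. The median log2 fold change was -0.72 over the members and 0.01 over all genes.

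MCM6 again fell furthest, from 221 and 219 CPM to 80.5 and 72.0 CPM. The samples did not overlap, and the fall was 2.89-fold (log2 -1.53 ± 0.12, edgeR adjusted p = 0.000255). POLE2, the polymerase epsilon subunit that had not passed with shBRG1, measured 21.2 and 18.2 CPM against 8.49 and 9.07 CPM (log2 -1.16 ± 0.19, edgeR adjusted p = 0.00378). MCM10, which helps the helicase start, stood at 90.9 and 79.2 CPM with shSCR2 and at 41.7 and 38.4 CPM with shMITF (log2 -1.09 ± 0.13). ORC1, the largest origin recognition subunit, measured 76.6 and 82.9 CPM against 41.4 and 34.7 CPM (log2 -1.07 ± 0.14). In each of these genes the knockdown samples lay below both controls. RPA1 stood at 276 and 253 CPM against 121 and 133 CPM (log2 -1.06 ± 0.12), and RRM2 (-1.05) and FEN1 (-1.04) completed the 7.

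The remaining members fell by smaller steps. Among the other licensing genes MCM4 fell by 0.93, ORC6 by 0.92, CDC6 by 0.91, MCM5 by 0.71, MCM2 by 0.70, GMNN by 0.68, MCM7 by 0.53, MCM3 by 0.50 and CDT1 by 0.50 on the log2 scale. CDC45, GINS4, GINS2 and GINS1 fell by 0.73, 0.73, 0.64 and 0.44. PRIM1, POLE, POLD1 and POLA1 fell by 0.91, 0.82, 0.79 and 0.43, LIG1, RFC5, RFC3, RFC2 and PCNA by 0.97, 0.86, 0.84, 0.54 and 0.50, and TYMS, TK1 and RRM1 by 0.87, 0.80 and 0.59. E2F2 fell by 0.93 and E2F1 by 0.51. CDT1, E2F1, GINS1, GINS2, MCM3, MCM7, POLA1 and RFC2 each lost their call in at least 1 fit that left out a library. The members that did not pass had log2 fold changes between -0.45 (PRIM2) and 0.00 (POLD2).

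These falls were measured only against shSCR2. Against shSCR1, 9 members fell with shMITF, fewer than the 32.3% of all genes, 19 rose, against 33.1%, and the median turned to 0.16. With both scrambled groups pooled, 1 member fell, against 1.81% of all genes, and the median was -0.28. Leaving out shMITF replicate 1 raised the count of more than 2-fold falls from 7 to 11, against 4.31% of all genes, and leaving out shMITF replicate 2 lowered it to 4, against 2.27%.

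In Hermes 3A melanocytes BRG1 silencing also lowered nearly the whole machinery, by smaller amounts. Of 42 members, 38 fell, against 28.6% of 17222 genes tested, GINS3 rose, against 28.2% of all genes, and GINS1, PRIM2 and LIG1 did not pass. CDC6, ORC6, FEN1 and GINS4 fell more than 2-fold, against 3.47% of all genes, and GINS3 rose more than 2-fold, against 5.78%. The median log2 fold change was -0.48 over the members and 0.01 over all genes. Fitted together with the shMITF samples, whose spread was larger, 25 members fell, against 11.1% of all genes.

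CDC6, which loads the helicase together with CDT1, stood at 61.9, 63.2 and 60.6 CPM with shSCR and at 23.5, 28.2 and 28.2 CPM with shBRG1. Its fall was 2.32-fold with no overlap (log2 -1.22 ± 0.06, edgeR adjusted p = 5.41e-16). ORC6, the smallest origin recognition subunit, measured 23.9, 25.3 and 22.4 CPM against 9.88, 11.2 and 10.4 CPM (log2 -1.18 ± 0.07). FEN1 measured 94.0, 85.0 and 93.4 CPM against 41.8, 44.8 and 43.1 CPM (log2 -1.07 ± 0.05). In both genes each shBRG1 sample lay under every control. GINS4 measured 17.9, 15.6 and 17.0 CPM against 7.70, 8.20 and 8.26 CPM (log2 -1.07 ± 0.08). GINS3, a subunit of the same complex, moved the other way, from 6.04, 4.71 and 5.75 CPM to 11.1, 11.7 and 11.4 CPM (log2 1.04 ± 0.09, edgeR adjusted p = 1.71e-10). Its groups did not overlap either, although without shSCR replicate 2 the rise was 0.95 and under 2-fold.

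The helicase ring fell nearly in step in Hermes 3A, by 0.83 (MCM6), 0.62 (MCM5), 0.58 (MCM4), 0.56 (MCM2), 0.53 (MCM3) and 0.46 (MCM7), a range of 0.37 log2 units. MCM10, ORC1, CDC45, GMNN, GINS2 and CDT1 fell by 0.89, 0.73, 0.66, 0.53, 0.47 and 0.32. Among the polymerase genes POLA2 fell by 0.60, PRIM1 by 0.49, POLE by 0.47, POLE2 by 0.46, POLA1 by 0.41, POLD3 by 0.29, POLD1 by 0.19 and POLD2 by 0.17. RFC3, RFC2, RFC4, PCNA and RFC5 fell by 0.83, 0.43, 0.32, 0.29 and 0.17, the RPA genes by 0.65 (RPA1), 0.43 (RPA2) and 0.29 (RPA3), and TK1, RRM2, TYMS and RRM1 by 0.75, 0.63, 0.57 and 0.35. E2F1 fell by 0.77 and E2F2 by 0.44. RFC5 lost its call in 4 of the 6 fits that left out a library. LIG1 did not pass, at 61.7, 61.6 and 60.2 CPM against 62.0, 57.5 and 56.4 CPM (log2 -0.06, 95% confidence interval -0.15 to 0.03).

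The effect of shBRG1 on the replication genes was tested for a difference between the lines, in 1 fit of the 12 samples. This fit held shSCR1 and not shSCR2. The same direction was common: 34 members fell in both lines, which is 97.1% of those that fell in 501Mel and 89.5% of those that fell in Hermes 3A, against 47.6% and 73.0% among the 16213 genes tested in both. The sizes differed for 29 of 42 members. The change was lower in 501Mel for 21, against 33.1% of 21697 genes, and higher for 8, against 24.8%. Without TMM normalisation these counts were 13 and 14, against 24.7% and 35.2% of all genes, and the median difference of all genes moved from -0.03 to 0.25.

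MCM6 differed most between the lines (log2 difference -1.97 ± 0.08, edgeR adjusted p = 1.08e-22), followed by PCNA (-1.75 ± 0.07), LIG1 (-1.45 ± 0.08), PRIM1 (-1.43 ± 0.13), MCM5 (-1.20 ± 0.08) and TYMS (-1.04 ± 0.08). PCNA shows the contrast plainly, since it stood at 206, 196 and 209 CPM with shSCR and at 168, 165 and 168 CPM with shBRG1 in Hermes 3A, a fall of 0.29 against 2.00 in 501Mel. The largest differences in the opposite direction were those of RPA2 (0.98 ± 0.07), E2F1 (0.87 ± 0.10) and ORC6 (0.85 ± 0.09). All 3 fell in Hermes 3A, whereas in 501Mel RPA2 rose, E2F1 did not pass and ORC6 fell by 0.30. CDC6 (-0.16, edgeR adjusted p = 0.131) and FEN1 (-0.15, edgeR adjusted p = 0.0626), more than 2-fold lower in both lines, did not pass the test of a difference.

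**Figure D4:**
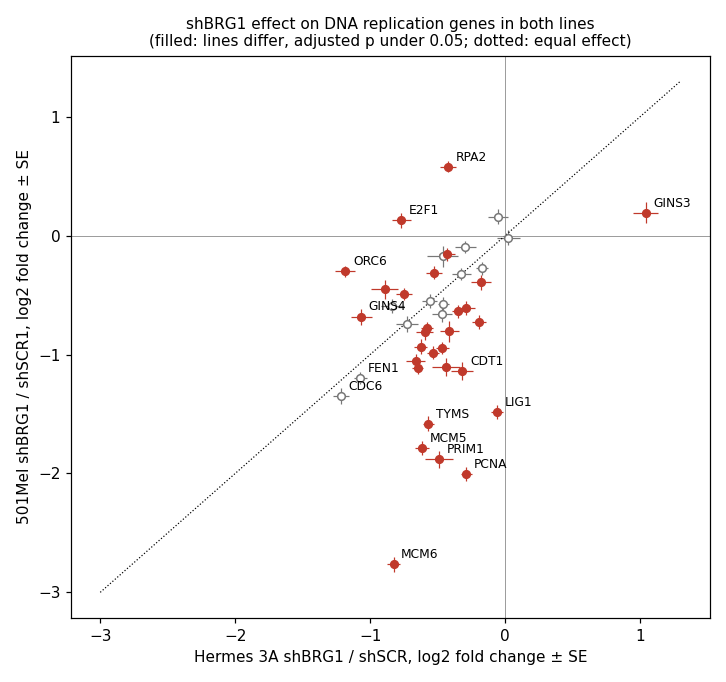
Change after BRG1 silencing, as log2 fold change ± SE, in Hermes 3A (x axis) against 501Mel (y axis) for the 42 genes, red where the test of the difference between lines passed and open where it did not, with a dotted line of equal change. MCM6, PCNA, LIG1, PRIM1, MCM5 and TYMS lie well under the line, and RPA2, E2F1 and ORC6 above it.

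MITF silencing in Hermes 3A gave the fewest falls of the 4 comparisons when all libraries entered and each knockdown was set against its own control. Of 42 members, 9 fell, against 9.15% of 16508 genes tested, and GINS3 rose, against 7.85%. The shMITF group had the largest biological coefficient of variation of all groups (31.5%), so a change of a given size passed less easily here. Regardless of the test, 38 members had a negative log2 fold change, against 7619 of the 16508 genes. The median log2 fold change was -0.34 over the members and 0.05 over all genes. RRM2 alone fell more than 2-fold, against 4.04% of all genes, and GINS3 alone rose by as much, against 3.35%. These values share their shSCR samples with the shBRG1 comparison in the same line.

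RRM2, which supplies deoxynucleotides, stood at 114, 108 and 113 CPM with shSCR and at 54.5, 66.9 and 41.1 CPM with shMITF (log2 -1.04 ± 0.18, edgeR adjusted p = 0.00637). The groups did not overlap, but the shMITF samples were widely spaced, and the fall was under 2-fold without shMITF replicate 3 (-0.88) or without TMM normalisation (-0.94). GINS3 measured 6.00, 4.73 and 5.71 CPM against 10.1, 14.5 and 10.5 CPM (log2 1.10 ± 0.21, edgeR adjusted p = 0.01). Every shMITF sample was above the controls, though GINS3 did not pass without shSCR replicate 2 or 3. TYMS fell by 0.97, MCM10 by 0.96, CDC6 by 0.82, LIG1 by 0.78, MCM6 by 0.65, FEN1 by 0.60, RPA1 by 0.57 and GINS4 by 0.50. The other 32 members had log2 fold changes between -0.88 (POLE, edgeR adjusted p = 0.0526) and 0.09 (POLD2).

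Replicate 2 of the shMITF group stood apart in MITF and in the replication genes. It had the most MITF of the 3 samples, 719 CPM against 456 and 544 CPM with 1014 to 1119 CPM in the controls, and the highest summed level of the replication genes. Without it, 22 members fell, against 12.3% of all genes, with a median of -0.49, and MCM10, RRM2, TYMS, POLE, POLE2, CDC6 and ORC1 fell more than 2-fold, against 5.33%. Without shMITF replicate 3, 4 members fell, against 8.46% of all genes. Over all genes it was replicate 1 that stood furthest from the others, with a chi-square per degree of freedom of 159 and 159.8 against replicates 2 and 3, which differed by 107, and without it 8 members fell, against 13.8% of all genes. Without shSCR replicate 1, 2 or 3 in turn, 2 members fell, against 3.27%, 2.87% and 2.75% of all genes. The test of the difference between lines passed for GINS3 (-1.29 ± 0.29) and RFC5 (-0.80 ± 0.20), which were lower in 501Mel, against 0.83% of 19284 genes, and for neither when any 501Mel sample or any shSCR sample was left out.

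**Figure D5:**
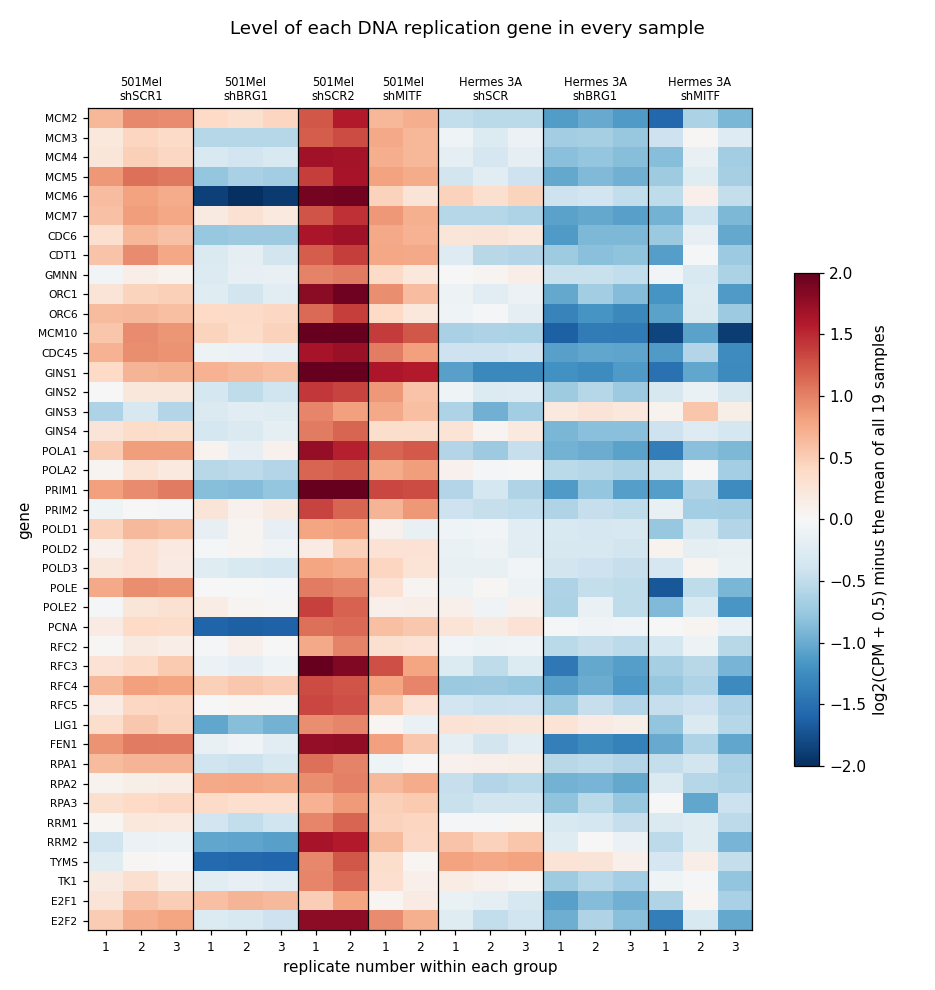
Level of each of the 42 genes (rows) in each of the 19 samples (columns, ordered by group and replicate), as log2(CPM + 0.5) minus the gene's mean over all samples, from blue (-2) to red (2). The shSCR2 columns are red for nearly every gene, MCM6, PCNA and TYMS are deep blue with 501Mel shBRG1, and shMITF replicate 2 in Hermes 3A is paler than its group.

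The knockdowns of BRG1 and MITF were also compared with each other. In 501Mel, where they share no sample, the shBRG1 change was lower than the shMITF change for 11 members, against 26.8% of 22255 genes, and higher for 11, against 21.2%. PCNA (-1.48 ± 0.11, edgeR adjusted p = 3.4e-08), MCM6 (-1.21 ± 0.12), MCM5 (-1.05 ± 0.13) and PRIM1 (-0.94 ± 0.12) were lower with shBRG1. POLE2 (1.01 ± 0.18), RPA2 (0.84 ± 0.10), E2F1 (0.67 ± 0.15), MCM10 (0.66 ± 0.15) and ORC6 (0.65 ± 0.12) were higher. Without TMM normalisation 6 were lower and 20 higher, against 21.2% and 28.5% of all genes, and each side rests on a different scrambled control. In Hermes 3A the shBRG1 and shMITF samples were compared directly. ORC6, E2F1, GINS4, MCM3, RPA2, RFC3, FEN1, MCM5 and GINS2 were lower with shBRG1, by 0.44 to 0.63 on the log2 scale, against 12.1% of 17652 genes, and LIG1 was higher (0.72 ± 0.12), against 11.8%. MITF itself fell by 1.55 with shBRG1 and by 1.06 with shMITF in 501Mel, and by 0.43 and 0.85 in Hermes 3A. The part of MITF in the differences between knockdowns was not tested.

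Members with an E2F-type match in any promoter window changed by a median of -0.81 with 501Mel shBRG1 (20 genes) and those without by -0.56 (16 genes). The order was the other way with 501Mel shMITF (-0.66 and -0.83), Hermes 3A shBRG1 (-0.47 and -0.56) and Hermes 3A shMITF (-0.35 and -0.43). The 20 genes with a match included both MCM6 and GINS3. Genes that hold only a variant of the letters searched, such as CDC45, were counted as without a match. These medians are a description and were not tested.

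Other genes of the pathway, taken from a list of 42 further replication factors (origin, checkpoint, clamp loader, nucleotide and chromatin assembly genes), were all tested in each comparison. With 501Mel shBRG1 29 fell and 7 rose, against 39.1% and 41.2% of all genes, and 9 fell more than 2-fold, against 17.4%, led by DUT, the dUTPase (log2 -1.66 ± 0.05), and DSCC1, an alternative clamp loader subunit (-1.53 ± 0.08). With 501Mel shMITF 23 fell, against 10.5% of all genes, and CLSPN, claspin (-1.35 ± 0.13), and ATAD5, a clamp unloader (-1.09 ± 0.18), fell more than 2-fold, against 3.4%. With Hermes 3A shBRG1 31 fell and 2 rose, against 28.6% and 28.2% of all genes, and DBF4, the activator of the CDC7 kinase, fell more than 2-fold (-1.10 ± 0.09), against 3.47%. With Hermes 3A shMITF 5 fell and 1 rose, close to the 9.15% and 7.85% of all genes, and CLSPN fell more than 2-fold (-1.13 ± 0.27), against 4.04%. The list's medians were -0.40, -0.47, -0.43 and -0.24. Of 12 other E2F and RB family genes, 8 fell and 3 rose with 501Mel shBRG1, against 39.1% and 41.2% of all genes, and those that fell included E2F8, a repressor E2F (-2.15 ± 0.08), and TFDP1, the partner of E2F factors (-1.86 ± 0.06). With 501Mel shMITF 4 fell and 1 rose, against 10.5% and 10% of all genes, with E2F8 at -1.70 ± 0.21 and E2F5 at 1.10 ± 0.19. With Hermes 3A shBRG1 5 fell and 1 rose, against 28.6% and 28.2%, and with Hermes 3A shMITF 1 fell, against 9.15%. The medians of these 12 genes were -0.54, -0.37, -0.03 and 0.13.

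Exons of 18 of the 42 members overlap exons of another gene in GENCODE 29, in 14 cases on the opposite strand, and whether reads were counted by strand is not stated. Among the genes given sample by sample these are PRIM1 (HSD17B6, NACA), FEN1 (TMEM258, FADS2), RPA1 (SMYD4), TYMS (ENOSF1, TYMSOS), LIG1, GINS3, GINS4 and RRM2, for which reads of the overlapping gene cannot be told apart.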

How the data were processed

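The series holds RNA-seq of 19 samples. Total RNA was depleted of ribosomal RNA and the libraries were treated with duplex-specific nuclease, which removes abundant cDNA and can compress high levels, before sequencing. The deposited files hold read counts per Ensembl gene, made by the authors from reads aligned to hg19, and the submitters' processing notes name CASAVA 1.8, TopHat 1.4.1 and Bowtie 0.12.7. The counting program, its annotation and its use of strand are not given in the sources used here. Files list 34033 to 42224 genes, and a gene was tested only where every sample compared lists it.

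The members and lists were chosen with earlier results of these data known. Symbols, lengths and exon overlaps came from GENCODE 29 (GRCh38) by Ensembl identifier, and no coordinate of the files was used. Counts were normalised by TMM, filtered with filterByExpr and tested with edgeR 4.0.16 (R 4.3.3), a robust quasi-likelihood F test in the 2 groups compared, with Benjamini-Hochberg adjustment over all genes tested. A gene fell or rose at adjusted p under 0.05, and more than 2-fold changes also needed a log2 fold change beyond 1. Differences between lines or knockdowns were contrasts in 1 edgeR fit. The 95% confidence intervals were taken from the SE by a normal approximation, and are narrower than intervals from the F test would be. The scripts were tested on simulated data with the same spread in every group and changes larger than most found here. That test does not cover groups of unequal spread or small changes. DESeq2 1.42.0 was an alternative. Values of every sample are given for the 5 members with the largest change among the more than 2-fold changes of each comparison, and for members that passed against the majority, with PCNA and LIG1 in Hermes 3A shBRG1 added after their values were seen.

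Replicates differed by more than counting noise (lowest chi-square per degree of freedom 2.27), so none was counted as a duplicate. Group and replicate number were taken from the sample labels. Other settings, replicates left out and other controls are described in the closing section.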

Additional observations from a re-analysis of the deposited data

Results flagged for a closer look

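The change with shBRG1 differed between 501Mel and Hermes 3A for 29 of the 42 replication genes, by the edgeR contrast of the log2 changes (501Mel minus Hermes 3A) with adjusted p under 0.05. It was lower in 501Mel for MCM6 (-1.97), PCNA (-1.75), LIG1 (-1.45), PRIM1 (-1.43), MCM5 (-1.20), TYMS (-1.04), GINS3 (-0.88), CDT1 (-0.85), E2F2 (-0.70), POLD1 (-0.56), POLE (-0.51), RPA1 (-0.50), MCM3 (-0.48), CDC45 (-0.42), POLA1 (-0.42), POLD3 (-0.35), RRM2 (-0.34), RRM1 (-0.32), RFC5 (-0.25), POLA2 (-0.25) and MCM4 (-0.23). It was higher in 501Mel for RPA2 (0.98), E2F1 (0.87), ORC6 (0.85), MCM10 (0.41), GINS4 (0.36), RFC2 (0.24), TK1 (0.23) and GMNN (0.19). By the same rule 33.1% of all 21697 genes tested were lower in 501Mel and 24.8% were higher. The change with shMITF differed for GINS3 (-1.29) and RFC5 (-0.80), both lower in 501Mel, against 0.83% of 19284 genes. Groups held 2 or 3 samples, so samples far from their group were not tested for.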

How the results depend on the processing

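With library sizes in place of TMM, the counts of more than 2-fold falls were 6 and 2 in 501Mel (shBRG1, then shMITF) and 2 and 0 in Hermes 3A (in the last, GINS3 rose and 4 members fell), the medians were -0.32, -0.62, -0.37 and, within the replicate spread of the main value, -0.24, and 7 members rose with 501Mel shBRG1. Over all genes the more than 2-fold falls were 2398 of 20514, 459 of 17701, 467 of 17222 and 540 of 16508. In the last 1127 genes fell and 1880 rose, and 55.1% rose with 501Mel shBRG1. Under library sizes the 501Mel shBRG1 change reversed for GINS1 (0.33), RPA3 (0.25), RFC2 (0.19), POLD2 (0.074), ORC6 (0.048), GMNN (0.039) and RFC4 (0.029). The contrast of lines gave 13 lower and 14 higher members for shBRG1, against 24.7% and 35.2% of all genes. For shMITF it gave 0, against 140 lower and 414 higher of 19284 genes. The contrast of knockdowns in 501Mel gave 6 lower and 20 higher, against 21.2% and 28.5%. With shSCR2 as the control, an alternative chosen after seeing the data, 34 members fell more than 2-fold with 501Mel shBRG1 (median -1.55, 0 rose), and GINS3 (-1.27), PRIM2 (-1.18) and RPA2 (-0.29) reversed. Over all genes of that fit 20.1% fell more than 2-fold, and 9168 of 21475 rose. With shSCR1 as the control for 501Mel shMITF, also chosen after seeing the data, 0 fell and 2 rose more than 2-fold, against 3376 and 2335 of 19179 genes. At adjusted p under 0.05, 9 fell and 19 rose, against 32.3% and 33.1% of all genes, and the median reversed to 0.16. Members that reversed there were GINS3 (1.25), GINS1 (1.03), PRIM2 (0.86), RRM2 (0.75), RFC3 (0.68), POLA2 (0.64), RPA2 (0.61), GINS2 (0.59), MCM10 (0.55), POLA1 (0.49), PRIM1 (0.41), ORC1 (0.41), MCM3 (0.39), MCM4 (0.34), RRM1 (0.33), TYMS (0.30), PCNA (0.28), GMNN (0.28), RFC2 (0.21), CDC6 (0.21), E2F2 (0.18), RFC5 (0.10), CDC45 (0.092), MCM7 (0.080), GINS4 (0.046), TK1 (0.020) and CDT1 (0.011). Both scrambled groups pooled gave 22 more than 2-fold falls with 501Mel shBRG1 (median -1.14, 0 rose, PRIM2 -0.49) and 0 with 501Mel shMITF (1 fell, median -0.28, GINS1 0.25, POLA1 0.043). Over all genes, 3029 of 20772 fell more than 2-fold and 5639 rose in the pooled shBRG1 fit. In the pooled shMITF fit 248 of 19569 fell more than 2-fold, and 1.81% fell. By adjusted p alone the falls were 35, 34, 38 and 9 and the rises with shBRG1 in 501Mel 2, while glmTreat against a 2-fold change gave 1 fall with shMITF in 501Mel and, in Hermes 3A, 1 with shBRG1, 0 with shMITF and 0 rises. Over all genes 39.1%, 10.5%, 28.6% and 9.15% fell by adjusted p, and 41.2% rose with 501Mel shBRG1. By glmTreat 82 of 17701 genes fell with 501Mel shMITF. In Hermes 3A 244 of 17222 fell and 358 rose with shBRG1, and 102 of 16508 fell and 83 rose with shMITF. At least 10 counts in every sample gave a 501Mel shBRG1 median of -0.54 with 4 rising and 13 higher members in the contrast of lines. Over all genes these were 6855 of 16356 rising and 5434 of 14077 higher. All groups of a line in 1 fit gave 25 falls (Hermes 3A shBRG1), 15 falls (Hermes 3A shMITF) and 1 rise (501Mel shBRG1). Over all genes these were 11.1%, 2480 of 17652 and 8054 of 22255. DESeq2 gave 1 rise with 501Mel shBRG1, 4 lower members in the shMITF contrast of lines and 2 higher members in the direct Hermes 3A comparison, and no filter gave 1 and, for the last, 3. Over all genes DESeq2 gave 7737 of 20514, 602 of 19284 and 2461 of 17652. Without a filter the first and last were 9598 of 39882 and 2017 of 32713. Leaving out 1 library at a time gave 12 to 15 more than 2-fold falls and 1 to 3 rises with 501Mel shBRG1, 4 to 11 falls with 501Mel shMITF, 0 to 1 rises with Hermes 3A shBRG1, and 0 to 7 more than 2-fold falls, 2 to 22 falls at adjusted p under 0.05 and 0 to 1 rises with Hermes 3A shMITF. It gave 5 to 10 higher members in the shBRG1 contrast of lines, 0 to 4 lower members in the shMITF contrast, and 2 to 14 lower and 1 to 7 higher members in the direct Hermes 3A comparison, where the lowest counts came without an shBRG1 replicate (3, 4 and 2) and the highest without shMITF replicate 3 (14 lower) or 2 (7 higher). In the 501Mel shMITF comparison the lone sample left in a group is assumed to vary like the others. Over all genes, leaving out 1 library gave 4845 to 5923 higher genes in the shBRG1 contrast of lines. In the direct Hermes 3A comparison 1093 to 3144 genes were lower and 1291 to 2872 higher. The causes of these changes were not tested. As a block, the replicate number gave 4 rises with 501Mel shBRG1, 2 more than 2-fold falls with Hermes 3A shMITF and 0 members in the shMITF contrast of lines. Over all genes these were 8329 of 20514, 725 of 16508 and, of 19284, 165 lower and 440 higher. Deviations of samples with the same number correlated between -0.05 and 0.13. With 2 or 3 samples a group, this check cannot tell whether a shared number marks a shared culture or batch.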
